A study of Mus musculus with 8 samples.

Results

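The data described here are 1 list of RNA intervals from colonic intestinal epithelial cells (IECs), each with the enrichment of that interval in RNA pulled down with an antibody to DDX5 over a size-matched input. All 9146 intervals (peaks) of the list labelled rAb were taken, out of 25601 peaks in the 2 colonic lists, and each was assigned to the genes of GENCODE M21 on the same strand of the mouse genome build GRCm38. The series holds 8 samples, and 2 of them, the rAb EP CLIP library and its rAb EP input, stand behind this list. The method was eCLIPseq (enhanced crosslinking and immunoprecipitation followed by sequencing), in which cells are irradiated with ultraviolet light, RNA is trimmed with RNase, the protein is precipitated with whatever RNA is bound to it, and the recovered fragments are sequenced from a single end. Both libraries came from C57BL/6 colon cells released with EDTA. The sample labels call the genotype wild type, whereas the growth protocol names Apcfl/+ CDX2Cre mice aged 120 days for the same samples. The study's methods also describe wild-type female mice for IEC eCLIPseq, younger than that age, and which description applies to these libraries is not known. In that cross a Cre driven by the CDX2 promoter removes 1 allele of Apc from the intestinal lining, so the cells may or may not carry the deletion. The IP used the DDX5 antibody Abcam ab53216 and the input used none. A second colonic list, labelled mAb, has the same description with its own IP and its own input, and what separates mAb from rAb is not stated. The rAb file is marked as merged from replicates 01 and 02, so its values may pool 2 preparations, and no spread between replicates can be had.

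DDX5 (also called p68) is a DEAD-box RNA helicase, an enzyme that uses ATP to remodel short RNA duplexes and RNA-protein contacts. It is known for roles in splicing, in the processing of microRNA precursors by the Microprocessor complex, in ribosome biogenesis and as a partner of transcription factors. It is also known to work with Rmrp, the RNA subunit of RNase MRP, in T helper 17 cells. In a CLIP experiment the input shows how abundant a fragment was in the lysate, and a peak is read by its abundance in the IP relative to that input.

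Some of the sequences on which the results turn are given first, from the reference genome on the strand of the gene. Among messenger RNAs, 3 enriched coding peaks are shown because the letters at their 3′ ends recur across the list, as described below. The peak is in capitals and 15 bases of flank on each side are in lower case. C3 (chr17:57210161-57210264, minus strand, with flanks) encodes the central component of complement. Cxadr (chr16:78333344-78333413, plus strand) encodes a tight junction protein, and Rnf43 (chr11:87727315-87727437, plus strand) encodes a ubiquitin ligase that removes Wnt receptors from the cell surface.
C3: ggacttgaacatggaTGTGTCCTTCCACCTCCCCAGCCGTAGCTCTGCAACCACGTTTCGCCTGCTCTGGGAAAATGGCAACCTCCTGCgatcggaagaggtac
Cxadr: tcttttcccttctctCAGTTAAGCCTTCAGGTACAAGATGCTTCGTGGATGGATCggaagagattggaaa
Rnf43: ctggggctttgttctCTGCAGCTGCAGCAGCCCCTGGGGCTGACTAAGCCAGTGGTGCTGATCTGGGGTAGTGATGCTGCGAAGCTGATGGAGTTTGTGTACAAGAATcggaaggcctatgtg

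A further 3 enriched peaks are very short and share a run of letters, in capitals here. They lie on Mettl8 (chr2:70976570-70976589, minus strand), Rnf217 (chr10:31593935-31593954, minus strand) and Atr (chr9:95913193-95913211, plus strand).
Mettl8: aatataCACTAGCGTCAata
Rnf217: ttccttCACTAGCGTCAgta
Atr: atatgCACTAACGTCAgtc

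The last sequence holds a peak that was strongly depleted in the IP, again in capitals. It is the tRNA-Arg gene within Gm17494 (chr3:122292948-122293032, minus strand), which was depleted over its 3′ part.
Gm17494: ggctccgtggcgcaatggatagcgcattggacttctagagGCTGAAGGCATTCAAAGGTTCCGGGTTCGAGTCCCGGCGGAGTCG

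Each peak carries a log2 fold of IP over input, scaled to library size, and a −log10 p of that difference. These values fix the reads behind a peak, and they gave library totals of 572677 IP reads and 1802465 input reads. Where the p was deposited as 0, as for every peak below 0, or at its highest value, the reads given are the smallest whole numbers with that fold, and the true numbers may be a multiple of them. The log2 fold ran from −4.45 to 6.11 with a median of 2.24 and quartiles of 1.07 and 3.24. Most of the list rested on very few reads. The commonest combination was 3 IP reads against 1 input read, at 2233 peaks (24.4%), which is a log2 fold of 3.24, as is any other ratio of 3 to 1. The median peak had 3 IP reads and 2 input reads. Since peaks were called on the IP, a peak of few reads could not fall below 0. Among 6153 peaks with 1 to 9 reads in both libraries together, 0 were below 0 and the median log2 fold was 2.65. Among 342 peaks with 100 or more reads, 41.5% were below 0 and the median log2 fold was 0.24. A high fold alone is therefore a weak statement in this list, and reads are given beside the main values below. Intervals in brackets are exact binomial 95% intervals, except those of differences between the rAb and mAb lists, which are normal 95% intervals. All of them cover counting error only.

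A peak was called a site where its deposited log2 fold was at least 3 and its −log10 p at least 3. Of 9146 peaks, 182 were sites (1.99%), and they lay on 124 genes, 72 of which had 1 site. A further 2749 peaks had a log2 fold above 3 without reaching the p. The sites held at least 7 IP reads each, and their median log2 fold was 4.29. The weakest sites had a log2 fold of 3.02 or a −log10 p of 3.04, and the nearest peaks outside had 3.0 and 2.97. At the other end, 725 peaks (7.93%) had a log2 fold below 0, 158 were below −1 and 41 were below −2. The 8 peaks below −3 were called depleted peaks (0.0875% of the list). No gene held both a site and a depleted peak, and 4 genes held a site and another peak below 0.

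For genes, IP and input reads were added over the stretches of joined peaks on each gene, and a gene was called enriched at a log2 fold of 1 or more with its interval above 0, or depleted at −1 or less with its interval below 0. Of 3905 genes with a peak, 1498 were enriched (38.4%) and 104 were depleted (2.66%), around a median gene log2 fold of 2.24. Because 1 IP and 1 input library stand behind the list, these calls say how the 2 libraries differed and nothing about variation between mice. In many genes the interval was wide, since few reads carried the value.

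The direction of the signal depended on the kind of RNA. The 110 peaks on 5S and other ribosomal-like sequence had a median log2 fold of 2.39, and 32 of them were sites. The 7003 peaks on exons of protein-coding genes had a median of 1.92, with 99 sites and 6.87% below 0. The 1396 peaks in introns of protein-coding genes had a median of 3.24, which is the value of 3 reads against 1, with 33 sites and 1.5% below 0. Small non-coding RNAs lay lower. Of 326 peaks on small nucleolar RNAs (snoRNAs), which guide chemical modification of ribosomal RNA, 40.8% were below 0 and the median was 0.30. Of 21 peaks on scaRNAs, the related guides of Cajal bodies, 61.9% were below 0 and the median was −1.08. Spliceosomal and other small nuclear RNAs (snRNAs) had 41 peaks from −4.45 to 3.46 with a median of 1.17, and so held the lowest peak of the list beside enriched ones. Reads added over whole classes gave a log2 fold of 2.29 (2.26 to 2.32) for 5S and similar sequence and −1.31 (−1.36 to −1.25) for the class of miscellaneous RNAs. That class holds Y, vault and 7SK RNAs and the ribozyme RNAs Rmrp and Rpph1, described below, among others. Of its 21638 input reads, Rmrp had 8242 and Rpph1 4637.

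**Figure D1:**
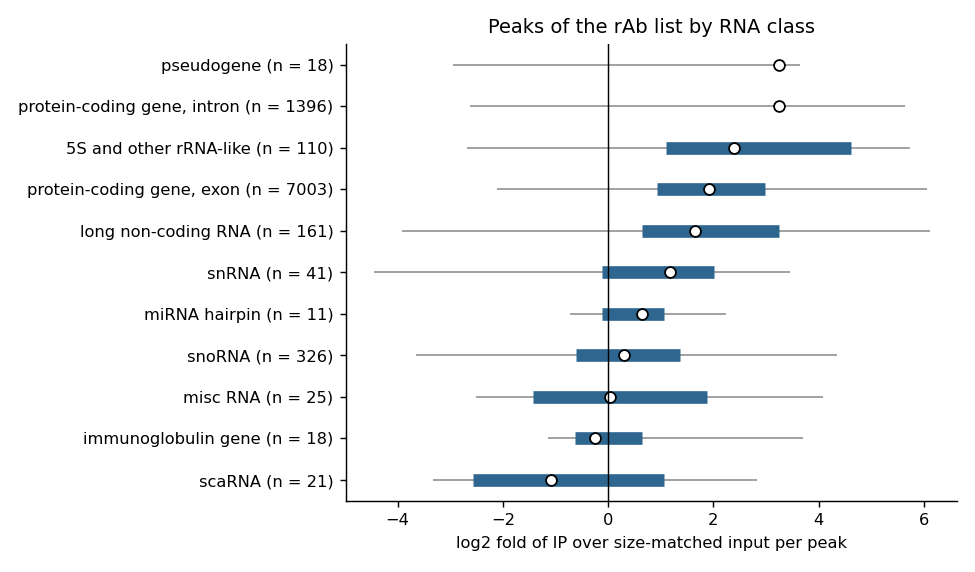
Log2 fold of IP over input (horizontal axis) of the peaks of the rAb list in each class of RNA, with the class median as a circle, the quartiles as a bar and the lowest and highest peak as a line. Peaks on 5S and similar sequence centred on 2.39 and peaks on snoRNAs on 0.30, while scaRNA peaks centred on −1.08.

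The position of sites and depleted peaks within genes was compared next. Coding sequence held 84 of the 182 sites, or 46.2% (38.8 to 53.7), against 55.5% of all peaks. The coding share of sites was 56.0% over joined stretches and 56.8% without ribosomal-like and adapter-like peaks. It was below 46.2% with a looser cutoff of the log2 fold, and without stretches holding the shared letters described below. The share of all peaks was not recomputed in these settings. Whether sites lay less often in coding sequence than all peaks is therefore not decided by them. Non-coding exons held 23.1% of sites and 7.8% of all peaks. Only 4.4% of sites, against 13.8% of all peaks, were in 3′ untranslated regions. All 8 depleted peaks were in non-coding exons, an interval of 63.1 to 100%. Among the 725 peaks below 0, 59.9% were in coding sequence, near the 55.5% of all peaks. Non-coding exons held 27.3% of them, against 7.8% of all peaks. On exons of protein-coding genes 6.87% of peaks were below 0, against 7.93% of the whole list. The 8 depleted peaks lay on small RNAs, a tRNA among them. Sites were shorter than other peaks at 0 or above, with median widths of 37 and 48 bases, and had a median GC content of 51% against 54%.

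5S ribosomal RNA, the short RNA of the large ribosomal subunit, exists as a standard copy in a gene cluster and as many scattered similar copies. It carried the largest read numbers among the enriched peaks. Of 90 peaks with 5S-like sequence, in 46 stretches, 89 could be placed on n-R5s136, a copy of the cluster, by alignment. The stretches lie on separate copies in the genome, although a copy can hold more than 1 stretch, as in Tmem38b. Many copies are near-identical, so the copy from which a read came is uncertain, but its position within the molecule is not. Others differ more, such as n-R5s158 with 81.4% identity to n-R5s136 where aligned. The 76 peaks centred on the 5′ side of the middle of the molecule had a median log2 fold of 2.63, with 7 below 0. The 13 peaks on the 3′ side had a median of −0.90, with 11 below 0 and no site. All 31 sites that could be placed were centred at position 43 or before. Of 68 peaks up to that position 4 were below 0, and of 21 peaks past it 14 were below 0. That position was taken from the sites themselves, so no site could lie past it and the split is a description. The ribosomal-like sites lay in 12 stretches, and adjacent peaks of a stretch can share reads. Peaks are therefore not separate observations.

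Single copies spanned a wide range. n-R5s2 had at least 1391 IP reads against 96 input reads and a log2 fold of 5.51 (5.21 to 5.82). n-R5s28 had at least 1751 against 179 and 4.94 (4.72 to 5.17), and n-R5s175 had at least 525 against 36 and 5.52 (5.03 to 6.05). A 5S-like stretch within an intron of Slc22a22, a gene of the solute carrier family, had at least 3158 against 349 and 4.83 (4.67 to 5.00). Other copies were lower. The deepest, n-R5s115, had at least 5931 IP and 2483 input reads and 2.91 (2.84 to 2.98), n-R5s136 was at 2.08 (1.98 to 2.18), from at least 1931 and 1434, and n-R5s193 was at 1.22 (1.16 to 1.28), from at least 4208 and 5682. Still others lay near or below 0, such as n-R5s151 at 0.65. n-R5s194, whose peaks lie near the 3′ end, had 29 IP reads against 577 input reads, a log2 fold of −2.66 (−3.25 to −2.12).

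The 2 directions also met within single copies. In n-R5s33 the log2 fold was 1.47 (0.72 to 2.23) at position 12, −0.86 (−1.39 to −0.37) at position 40 and −2.54 (−3.22 to −1.94) at position 90. In Tmem38b, which contains another copy, it was 0.23 on the 5′ side and −1.92 on the 3′ side. Of 4 stretches with peaks on both sides, 3 were higher on the 5′ side. In the mAb list the same order held, with a median of 1.47 over 67 peaks on the 5′ side and −1.46 over 15 peaks on the 3′ side, where 15 of 15 were below 0. The last site position in that list was also 43.

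**Figure D2:**
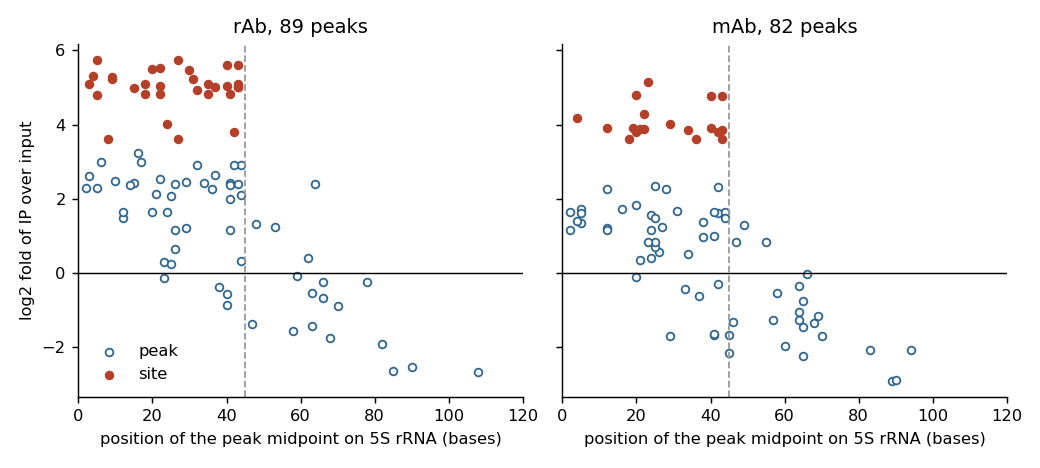
Log2 fold of IP over input (vertical axis) of each 5S-like peak against the position of its centre on the n-R5s136 copy (horizontal axis, bases from the 5′ end), for the rAb and mAb lists, with sites filled and a dashed line at base 45, where TCGGAAG begins. All placed sites lie at position 43 or before, and peaks on the 3′ side of the middle lie mostly below 0.

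A minority of the enriched stretches shared letters at their 3′ ends. In n-R5s136 the peaks, which are not sites, end at base 44, and the 7 letters TCGGAAG begin at base 45. In the more enriched n-R5s2 that place holds them with 1 mismatch. The same letters lie at the 3′ end of the C3 peak, across the end of the Cxadr peak and across the end of the Rnf43 peak in the sequences printed above. They were therefore counted over the list, in the last 10 bases of each joined stretch and the next 25 bases, in the genome and along the spliced transcript. The letters were chosen after the sequences had been seen, so the counts are a description. TCGGAAG was present at 29 of 134 stretches with a site, or 21.6% (15 to 29.6). It was present at 183 of all 7847 stretches (2.33%), and at 154 of 7713 without a site (2.0%). Among 819 stretches without a site that had 7 or more IP reads and a log2 fold of at least 0, 35 had it (4.27%). Among 636 stretches in which every peak was below 0, 1 had it (0.157%). The share was thus highest at stretches with a site and lowest where every peak was below 0. The sets overlap and are not ordered by fold alone. Among stretches without the letters, the median log2 fold was 1.29 in the 819 and 2.07 in the 7713. The parts of read depth and of fold in the share were not tested.

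The pattern had a strand and an end. The reverse complement of TCGGAAG was present at 0 of 134 site stretches and at 0.14% of all stretches in the same window. At the 5′ end of the stretch the letters were present at 0 of 134 site stretches and at 0.191% of all. The longer run TCGGAAGAG with at most 1 mismatch, which overlaps the shorter one, was at 17.2% of site stretches and 2.68% of all. A further run, AGCGTC, was at 5 of 134 site stretches (3.73%), among them those of Mettl8, Rnf217, Sf3a2 and Myh9, and at 0.65% of all. At least 1 of the 3 was present at 37 site stretches (27.6%), of which 35 were not ribosomal, so the larger part of the site stretches held none. Of the 12 ribosomal-like site stretches, 2 held TCGGAAG exactly. The rule that sets the site calls used the fold and the p and no sequence.

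The stretches with TCGGAAG included several of the best supported messenger RNA sites. Prr13 had 56 IP reads against 11 input reads and a log2 fold of 4.0 (3.05 to 5.08). Dynll1, a dynein light chain, had 42 against 11 and 3.59 (2.60 to 4.69). Hist2h2bb, a core histone, had 66 against 22 and a log2 fold of 3.24. C3, Cxadr, Rnf43, Nedd4l, Ubr4, Usp8 and the first exon of Sumo3 were also among them. These names were picked after their values were seen. In the mAb list 17 of 158 site stretches had the letters, or 10.8% (6.39 to 16.7), against 1.53% of stretches without a site. As background, TCGGAAGAG is also part of the adapter in common Illumina libraries, and in eCLIP an adapter is joined to the 3′ end of each fragment. Whether priming or trimming at matching letters had a part in these peaks was not tested, since the reads themselves were not analysed here. Without all stretches holding any of the 3 runs, 138 of the 182 sites, 1373 enriched genes, all 8 depleted peaks and 104 depleted genes were left. The coding share of sites was then 39.1% (30.9 to 47.8).

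**Figure D3:**
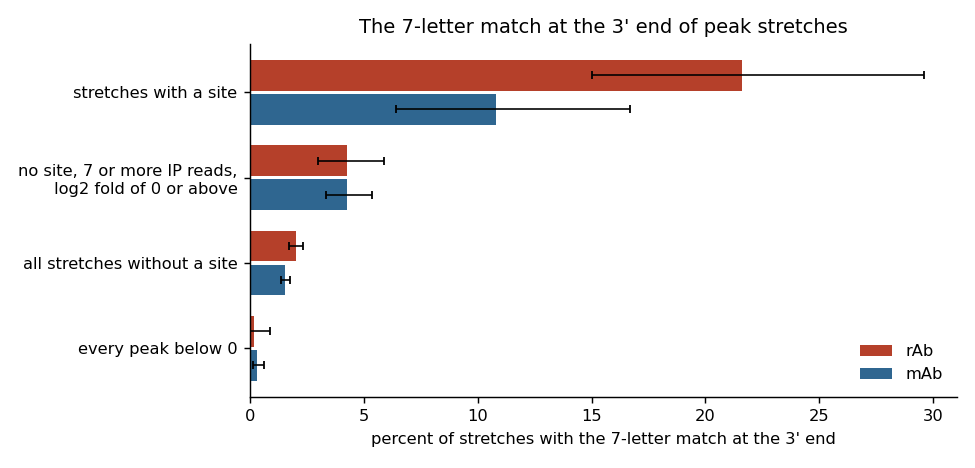
Percent of joined stretches with TCGGAAG at their 3′ end (horizontal axis) in 4 sets of stretches, as bars for the rAb and mAb lists with exact binomial 95% intervals as lines. The share was 21.6% at stretches with a site and 0.157% at stretches below 0 in the rAb list, and 10.8% and 0.296% in the mAb list.

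Very short sites had a second shared run. Among 31 site stretches of 30 bases or fewer, those of Mettl8 and Rnf217 held the same 11 letters printed in capitals above, and Atr held them with 1 mismatch. The letters were picked as the longest run shared by 3 of these site stretches, so those 3 were bound to be sites. With up to 1 mismatch, 4 of all 9146 peaks held the letters (0.0437%). All 4 were sites, of which 3 had defined the run. Mettl8, a methyltransferase gene, had 21 IP reads against 1 input read, and its log2 fold of 6.05 (3.41 to 11.42) was among the highest of the list. Atr, which encodes a DNA damage checkpoint kinase, had 16 against 1 and 5.65 (2.97 to 11.04). Rnf217 had 15 against 1 and 5.56 (2.86 to 10.96). The highest fold of all, 6.11 (3.48 to 11.48), was at Gm805, with 22 IP reads and 1 input read. Such folds rest on a single input read, and their intervals span several log2 units. The mAb list also had 4 peaks with the 11 letters at up to 1 mismatch, among them Mettl8 and Atr, and 3 of them were sites.

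Among messenger RNAs, Myh9 held more sites than any other gene. Myh9 encodes the heavy chain of non-muscle myosin IIA, a motor of the cortical cytoskeleton. It had 54 peaks and 16 sites, and its reads were 1190 in the IP and 598 in the input, a log2 fold of 2.65 (2.50 to 2.79). Its peaks ran from −0.25 to 3.85 with a median of 2.60, and 39 of them reached a −log10 p of 3. The sites held 13 to 104 IP reads each, so this gene did not depend on single input reads. They lay in 11 of 41 exons, from exon 22 to exon 41, between positions 2881 and 6043 of a transcript of 7433 bases whose coding sequence runs from 239 to 6118. The sites thus lay in the 3′ part of the coding sequence, which encodes mainly the coiled-coil tail of the myosin, although 10 peaks were listed upstream of them. Of the 16 sites 15 were overlapped by a peak of the mAb list, at log2 folds of 1.35 to 3.81, and 1 Myh9 stretch held AGCGTC at its end (104 IP reads against 36).

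**Figure D4:**
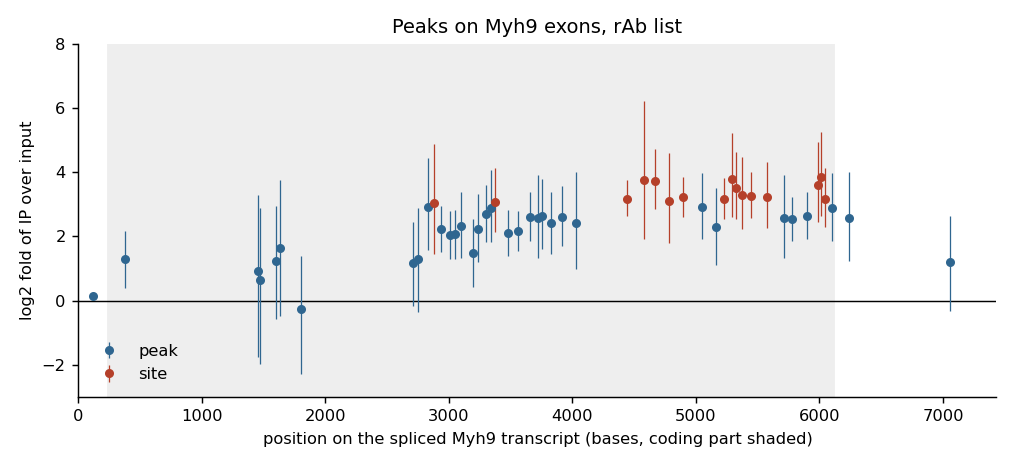
Log2 fold of IP over input (vertical axis) of the 50 Myh9 peaks on exons in the rAb list against their position on the spliced transcript (horizontal axis, bases), with sites in a second colour, exact binomial 95% intervals as lines and the coding part shaded. Sites lie between positions 2881 and 6043, with 10 peaks upstream of them and 3 downstream.

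Other myosin genes were enriched too. Of 51 myosin genes 18 had a peak and 12 were enriched (66.7%, against 38.4% of all genes), with a median gene log2 fold of 2.31. Myh14, a non-muscle heavy chain like Myh9, had 152 IP reads against 96 input reads and 2.32 (1.94 to 2.70), with 3 sites in exons 30, 34 and 38 of 40. Myo1e, a single-headed membrane myosin, had 35 against 5 and 4.46 (3.10 to 6.17), with sites in exons 8 and 9 of 28. Myo10, the motor of filopodia, had 33 against 21 and 2.31 (1.47 to 3.17) and no site. Of 27 genes for keratins, actin and the brush border 23 had a peak, 10 were enriched (43.5%), 8 were below 0 and the median was 1.19. In that list Krt8, a keratin of simple epithelia, was at −0.19 (−0.54 to 0.14), while spectrin beta (Sptbn1) was at 1.94 (1.58 to 2.30), spectrin alpha (Sptan1) at 1.85 (1.46 to 2.24) and Actn1, which crosslinks actin, at 1.77 (1.4 to 2.15) with 2 sites.

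Among junction genes, 18 of 28 had a peak, 8 were enriched (44.4%, against 38.4% of all genes) and the median gene log2 fold was 1.36. Cxadr had 82 IP reads against 23 input reads and a log2 fold of 3.49 (2.81 to 4.22). Its sites were in exon 3, with 34 against 5 and 4.42, and in exon 4, with 34 against 3 and 5.16, of 7 exons. The exon 4 peak, printed above, begins within a few bases of the exon start, and reads that cross the junction may be counted in both, which was not tested. The desmosomal gene Dsp was at 1.49 (0.97 to 2.02), and Cldn4, a claudin, at 1.70 (0.97 to 2.42).

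Wnt pathway and crypt genes had 18 members of 28 with a peak, of which 10 were enriched (55.6%, against 38.4% of all genes), at a median of 2.20, near the 2.24 of all genes. Rnf43 had 72 IP reads against 29 input reads and a log2 fold of 2.97 (2.33 to 3.64), and its site in exon 5 of 10 had 32 against 3 and 5.07. Cd44, a crypt surface marker, was at 2.32 (1.51 to 3.16), with a site in an intron at 3.07. Nkd1, an inhibitor of the pathway that the pathway itself induces, was at 1.41 (1.09 to 1.74). Its deepest single interval was at −0.03, so its value depended on which intervals were added.

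SUMO and ubiquitin genes had 13 of 24 members with a peak, 6 enriched (46.2%, against 38.4% of all genes) and 3 with a site, at a median of 1.92. Sumo3, a small protein that is attached to others as a tag, had 32 IP reads against 2 input reads in its exon 1 of 4 and a log2 fold of 5.65 (3.68 to 8.76), shared with the overlapping Gm49325. Nedd4l, a ubiquitin ligase of ion channels, was at 3.65 (2.20 to 5.42) from 20 and 5 reads, and Huwe1, a very large ligase, at 1.59 (0.95 to 2.22). The Sumo3 and Nedd4l sites are among those with TCGGAAG at their end.

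C3 had 1 peak, in exon 30 of 41. It held 16 IP reads against 3 input reads, a log2 fold of 4.07 (2.26 to 6.49) and a −log10 p of 7.23. The mAb list had 15 against 1 there and 4.47, and the difference of −0.40 had an interval of −3.82 to 3.02. Among the 29 complement and epithelial defence genes 12 had a peak, 3 were enriched (25%, against 38.4% of all genes) and the median was 1.39. Pigr, which carries IgA across the epithelium, was at 1.12 (0.55 to 1.68) from 47 and 68 reads. C3 was the only gene of that list with a site, and TCGGAAG lies in the 3′ flank of the site, as printed above.

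Of the other genes fixed by name, Ahcyl1, a relative of the enzyme that breaks down S-adenosylhomocysteine, had 54 IP reads against 38 input reads and 2.16 (1.54 to 2.80), with a site at 3.35. Shroom3, which bends epithelial sheets through actin, had 12 against 10 and 1.92 (0.58 to 3.29), with no site. The messenger RNA of Ddx5 itself had 26 against 46 and 0.83 (0.08 to 1.56), which did not reach the call. Among genes for DDX5 and its partners 16 of 21 had a peak, 8 were enriched (50%, against 38.4% of all genes) and none had a site, at a median of 1.38. Crebbp, a histone acetyltransferase, was at 2.24 (1.20 to 3.33). Among DEAD-box and DEAH-box helicase genes 5 of 20 with a peak were enriched (25%), at a median of 1.81, among them Ddx6 at 2.09 (1.02 to 3.20). With the deepest interval of each gene alone Ddx6, Ddx54, Dhx30 and Dhx36 lost the call, as did Crebbp, Shroom3, Myo10, Dsp and Huwe1.

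Many of the gene lists had a median below that of all genes, and ribosomal protein genes had the lowest among those of coding genes. Of 84 genes for cytosolic ribosomal proteins 72 had a peak, at a median gene log2 fold of 0.62, against 2.24 over all genes. Of the 72, 17 were enriched (23.6%, against 38.4% of all genes) and 4 were depleted, against 2.66% of all genes. Folds fell with depth across the list, as given above, and the part of depth in the list medians was not tested. Rpl13a was at 1.77 (1.5 to 2.04) from 241 and 223 reads. Rpl5, whose protein carries 5S ribosomal RNA into the ribosome, had 162 IP reads against 213 input reads and 1.26 (0.96 to 1.56). It held 2 sites, each with 14 reads against 2 and a log2 fold of 4.46. They lie in exons 5 and 6 of 8, and reads that cross the junction may be counted in both, which was not tested. Translation factor genes had 39 of 74 members with a peak, at a median of 1.24. Of those 14 were enriched (35.9%, near the 38.4% of all genes) and 1 was depleted. Eif4g2, a cap-independent initiation factor, was at 0.85 (0.55 to 1.14) with a site at 3.14. Oxidative phosphorylation genes had 36 of 87 with a peak and 3 enriched (8.33%), at a median of 0.85. Genes for heat shock and ER chaperones had 25 of 30 with a peak and 6 enriched (24.0%), at 0.82. SR protein and hnRNP genes had 35 of 42 with a peak and 14 enriched, at 1.18. Their share of 40.0% was near the 38.4% of all genes.

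The remaining lists varied around the 38.4% of all genes. Of 27 immediate-early genes 12 had a peak and 8 were enriched, at a median of 1.65, among them Fosl2 at 1.84 (0.95 to 2.73). Solute carrier genes had 53 of 367 with a peak, 19 enriched and a median of 2.24, and their highest value was the 5S-like stretch in Slc22a22. Lipid uptake and bile acid genes had 9 of 24 with a peak and 4 enriched, among them Hmgcs1, an enzyme of cholesterol synthesis, at 3.82 (1.55 to 7.07) from 9 and 2 reads. Mucus and goblet cell genes had 9 of 20 with a peak and 2 enriched, at 0.99. Aminoacyl-tRNA synthetase genes had 12 of 20 with a peak and 4 enriched, at 1.84. None of these 5 lists had a depleted gene.

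Small nucleolar RNAs divided by their 2 families. Box C/D snoRNAs guide methylation of ribosomal RNA, and box H/ACA snoRNAs guide the change of uridine to pseudouridine. Box C/D genes had 64 symbols with a peak, and 34 of their gene entries were enriched and 2 depleted, at a median gene log2 fold of 1.22. Box H/ACA genes had 37 symbols with a peak, and 2 of their entries were enriched and 19 depleted, at a median of −1.03. Some symbols, such as Snora16a, stand for more than 1 entry with the same reads, so entries are not all separate RNAs. Over peaks, 14 of 80 box C/D peaks and 44 of 66 box H/ACA peaks were below 0. Against this, 38.4% of all genes were enriched and 2.66% depleted.

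Members with many reads were found in both directions. Snord118 (U8), which acts in the processing of the large ribosomal subunit RNAs, had 338 IP reads against 517 input reads and a log2 fold of 1.04 (0.84 to 1.24). Snord17 had 180 against 134 and 2.08 (1.75 to 2.41). Snord12, inside the lncRNA gene Zfas1, had 84 against 21 and 3.65 (2.95 to 4.42), with 2 sites. On the other side, Snora73a had 62 against 585 and −1.58 (−1.99 to −1.20), and Snora73b had 62 against 557 and −1.51 (−1.92 to −1.13). Snora68 had 48 against 533 and −1.82 (−2.28 to −1.39). Snora17 had 8 against 317 and −3.65 (−4.88 to −2.66). The families overlapped, however. Snora65 was at 0.42 (0.20 to 0.64) from 242 and 570 reads and Snora7a at 0.64 (0.38 to 0.90) from 179 and 361. Snord13 was at −0.20 (−0.50 to 0.10), and Snora74a was at 2.03 (1.91 to 2.14) from 1434 and 1107 reads.

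A peak in both lists was found at 63 box C/D gene entries and at 37 box H/ACA gene entries. Of the 63, 42 were above 0 in both lists, 12 were below 0 in both and 9 were opposite. Of the 37, 2 were above 0 in both, 28 were below 0 in both and 7 were opposite. The median gene log2 fold in the mAb list was 0.54 over its box C/D entries (70 symbols) and −1.41 over its box H/ACA entries (37 symbols). The H/ACA family therefore lay below the C/D family with either IP and either input.

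**Figure D5:**
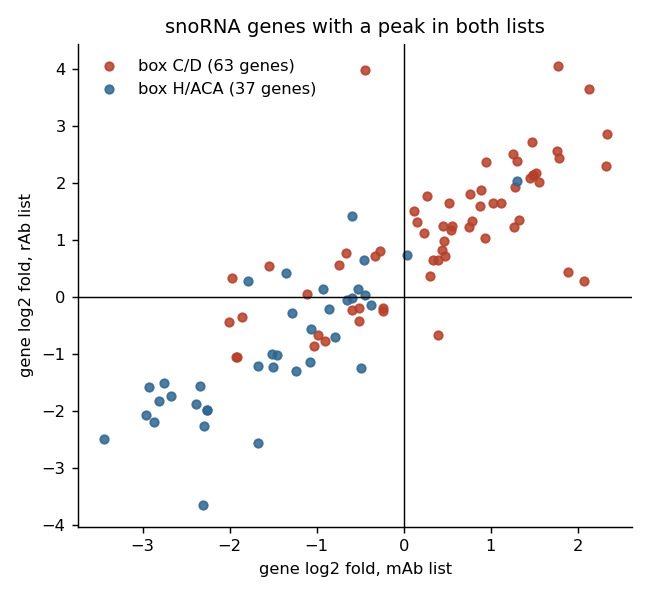
Gene log2 fold of IP over input in the rAb list (vertical axis) against that in the mAb list (horizontal axis) for box C/D and box H/ACA snoRNA genes, a point per gene entry. Of 63 C/D entries 42 were above 0 in both lists, and of 37 H/ACA entries 28 were below 0 in both.

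The deepest depletion was on the 3′ part of U5 and on a tRNA. The lowest peak of the list, at −4.45 (−5.26 to −3.74), was at Gm25313, a small nuclear RNA gene, with 16 IP reads against 1101 input reads. Its 34 bases lie unchanged within Rnu5g, a gene for U5, the spliceosomal small nuclear RNA that holds the exons in place, whose own peak had 11 against 508 and −3.88 (−4.89 to −3.02). Gm24871, a further small nuclear RNA gene within B930036N10Rik, had 30 against 773 and −3.03 (−3.61 to −2.51). Over all snRNA genes the 25 peaks on the 5′ side had a median log2 fold of 1.24, and the 16 peaks on the 3′ side had −0.50. The order varied among other classes. It was absent for scaRNA peaks, at −1.61 on the 5′ side and −0.42 on the 3′ side. It was also absent for snoRNA genes not named Snord or Snora, at 0.19 and 0.29. Box C/D peaks were at 1.33 and 1.04, and box H/ACA peaks at −0.55 and −1.12. Miscellaneous RNAs other than the ribozymes were at 2.24 and 0.05. Other snRNAs were not depleted, such as Rnu11 of the minor spliceosome at 0.42 (0.31 to 0.53) from 989 and 2323 reads. Rnu7, which acts on histone messenger RNA ends, was at −1.61 (−2.56 to −0.78).

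The tRNA-Arg gene within Gm17494 had 21 IP reads against 995 input reads, a log2 fold of −3.91 (−4.61 to −3.29), and the mAb peak there was at −2.94. tRNAs had 6 peaks in all, and those on 3 genes for tRNA-Arg were the lowest. The one in Fmc1 had 52 against 937 and −2.52 (−2.95 to −2.11), and that in 1700064H15Rik had 3 against 48 and −2.35 (−4.67 to −0.71). The tRNA-His peak in Nfib was at −0.22 (−2.70 to 1.70), and the tRNA-Ile peak at Mir1983 at 0.65 (−1.24 to 2.34), both of them wide.

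The remaining depleted peaks had fewer reads. Scarna3b, which overlaps Mir1843a, had 4 IP reads against 127 input reads and −3.33 (−5.23 to −1.94). Gm23751, within Chd4, had 7 against 195 and −3.15 (−4.48 to −2.08). All 8 depleted peaks were overlapped by a mAb peak, and all 8 of those were below 0, with a median of −3.10.

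The RNAs of RNase MRP and RNase P and the vault RNA Vaultrc5 were among the depleted genes with the most input reads. Rmrp, which cuts precursor ribosomal RNA, had 937 IP reads against 8242 input reads and a log2 fold of −1.48 (−1.58 to −1.39), and its mAb value was −1.16. It is annotated under 2 gene entries that share these reads. Rpph1, which cuts the 5′ ends of precursor tRNAs, had 525 against 4637 and −1.49 (−1.62 to −1.36), with −0.68 in the mAb list. The vault RNA Vaultrc5 had 670 against 5731 and −1.44 (−1.56 to −1.33), but −0.87 with all its intervals added, which is no call. The Y RNA Rny3, a partner of the Ro protein, had 51 against 919 and −2.52 (−2.95 to −2.11). Rn7sk, which holds the elongation factor P-TEFb inactive, was at −0.35 (−0.50 to −0.21) and was not called. These RNAs were thus abundant in both libraries and lower in the IP.

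In a list of non-coding nuclear RNAs 11 of 17 entries had a peak, at a median of −0.35. Of those, 3 were enriched (27.3%, against 38.4% of all genes) and 4 were depleted, against 2.66% of all genes. The 4 are the 2 entries of Rmrp, Rpph1 and Snhg12, so 3 of them are the ribozyme RNAs above and not long RNAs. Neat1, the scaffold of paraspeckles, was enriched at 1.60 (1.30 to 1.9) from 182 and 189 reads. Malat1, of nuclear speckles, was at 0.44 (0.35 to 0.54) from 1329 and 3074. The snoRNA host genes Snhg12, at −1.12 (−1.39 to −0.87), and Snhg3, at −1.55 (−1.83 to −1.28), were depleted, and Zfas1 was enriched at 2.73 (2.30 to 3.17). In these hosts the reads lie largely on the snoRNAs that the genes contain.

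Protein-coding genes made up 3413 of the 3905 genes, and 22 of them were depleted. In 19 of the 22 the deepest peak lay on a small RNA, a tRNA or a 5S-like stretch inside the gene. Rcc1, which loads Ran with GTP, had −1.52 (−1.79 to −1.25) from Snora73a and Snora73b, and with peaks on more than 1 gene left out it was at 2.24. Tpt1 was at −1.21 (−1.71 to −0.74) and contains Snora31, and was at −0.26 with peaks on more than 1 gene left out. The exceptions were Tal1 at −2.63 (−4.54 to −1.22), the antioxidant enzyme gene Gpx1 at −2.01 (−4.35 to −0.35) and the linker histone gene Hist1h1c at −1.28 (−2.80 to −0.05), each with 6 or fewer IP reads. The Tal1 peak lies in an intron. The depleted group also held 35 of 222 snoRNA genes, 11 of 17 scaRNA genes, 8 of 28 snRNA genes and both ribozymes, against 2.66% of all genes. In the same classes 64 snoRNA genes, 3 scaRNA genes, 10 snRNA genes and no ribozyme were enriched, against 38.4% of all genes. More snoRNA and snRNA genes were therefore enriched than depleted. With peaks on more than 1 gene left out, 21 depleted genes were left of 104.

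Markers of cell types were read from the input. Of 16 markers of colonic epithelium 9 had a peak, with 1385 input reads in all, and Aqp8, Car1, Chga, Clca1, Lgr5, Slc26a3 and Zg16 had none. Of 5 fibroblast markers 4 had a peak, with 801 input reads, led by Col1a1 with 346 input reads and Col3a1 with 303. Of 9 immune markers 4 had a peak, with 290. Smooth muscle (4 markers) and endothelium (3 markers) had none. Markers of connective tissue were therefore present beside epithelial ones, and a marker without an IP peak is not shown to be absent, since only intervals called on the IP are listed. In such a bulk sample fewer cells of a type and less RNA per cell cannot be told apart. Peaks on immunoglobulin genes, the products of plasma cells, had a median of −0.25 with 10 of 18 below 0, and their reads added to a log2 fold of 0.0. They included 3 sites on Igkc, which had 116 IP reads against 33 input reads and 3.47 (2.90 to 4.07), with 0.74 in the mAb list. The part of other cell types in the peaks of widely expressed genes was not tested.

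The list was last set beside the mAb list, in which each IP was compared with an input of its own. Peaks were found in both lists at 2954 genes, in the rAb list alone at 951 and in the mAb list alone at 2600. The gene log2 fold was higher in the rAb list by a median of 0.87, with the interval of the difference above 0 at 436 genes and below 0 at 47. Relative to that median shift, 38 genes were higher and 153 lower (6.47% together). Of the 104 depleted genes 100 had a mAb peak and 89 were depleted there as well, which is 85.6% of the rAb genes and 40.6% of the 219 mAb genes (3.94% of 5554). Of the 1498 enriched genes 510 were enriched there too, which is 34.0% of them and 45.3% of the 1125 mAb genes (20.3% of 5554), while 70 were below 0. Sites were overlapped by a mAb peak at 169 of 182 (92.9%) and by a mAb site at 78. A mAb peak also overlapped 32.0% of all peaks, 77.8% of peaks below 0 and all 8 depleted peaks. Sites and peaks below 0 had more reads in the median than the other peaks. The part of depth in the overlap was not tested. Myh9 was at 1.92 in the mAb list, a difference of 0.72 (0.53 to 0.92). Rpl5 was at −0.46 (−0.76 to −0.16) there, from 142 and 288 reads, and so lay on the other side of 0. That holds for reads added over the gene. At the Rpl5 sites the overlapping mAb peak was at 3.73, above 0 as in the rAb list.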

How the data were processed

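For the colonic rAb eCLIP list, the authors trimmed reads with cutadapt 1.9.1 and aligned them with STAR 2.4.0i to mm10 (SAMtools 1.4.1, per the submitters' processing notes), called peaks on the IP with CLIPper and normalized each to the size-matched input. The deposited values are a −log10 p (from 0 to 400, and 0 at 820 peaks, which include those below 0) and a log2 fold of IP over input per peak. Replicates appear merged, with 1 sample per group.

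IP and input reads were recovered as the whole numbers that give both deposited values (relative tolerance 0.0001), at 99.87% of the 8282 peaks with a p. For the 864 others (p of 0, or at the highest value) the smallest whole pair was used, written "at least" above for the deep RNAs; it equalled the traced reads at 88.9% of peaks where both were known, so those intervals may be too wide. Reads were not found for 11 peaks. Peaks within 10 bases were joined, and the deepest peak of each stretch was added per gene. Peaks on more than 1 gene (679) counted for each. Introns within 500 bases of an exon were proximal. Peaks were matched to rRNA by BLAST+ 2.17.0+ (356 GENCODE M21 and 65 RefSeq rRNA sequences, without the 45S precursor) and folded with RNAfold 2.7.2. Python 3.11.15, pandas 2.3.3, numpy 2.4.6, scipy 1.17.1, Biopython 1.88 and matplotlib 3.10.9 were used. With 1 sample per group no test between conditions was made. Intervals of a fold are exact binomial (95.0%) on the 2 read numbers given the library totals. Those of a difference between lists are normal (95.0%), from the read numbers of both lists. Reads without molecular identifiers are not independent molecules. Tested on simulated reads for the 3905 genes, 56.0% of genes at a log2 fold of 2 were called enriched and 29.0% at −2 depleted, against 100.0% and 95.8% with 30 or more reads.

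The genes named were the 10 with the highest sites, the 5 with the most sites, the 10 depleted genes with the lowest fold and the 10 with the most input reads, C3, Ahcyl1, Shroom3, Ddx5 and Rmrp, and up to 4 called members of each gene list by reads. Others were chosen after their values were seen. The members and gene lists were chosen with earlier results of these data known. Some items are not reported here.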

Additional observations from a re-analysis of the deposited data

Results flagged for a closer look

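Rpl5, a ribosomal protein gene, had a log2 fold of IP over input of 1.26 (0.96 to 1.56) in the rAb list and −0.46 (−0.76 to −0.16) in the mAb list. It was singled out because the exact binomial intervals lay on opposite sides of 0, with a difference of 1.72 (1.30 to 2.13) that covers counting error only, from 1 IP and 1 input library each. The opposite sign holds for reads added over the gene and not for the Rpl5 sites, which were at 4.46, with the overlapping mAb peak at 3.73. Over all genes with a peak in both lists, 20 had such opposite directions, of which 19 were above 0 in the rAb list and 1, Phip at −0.98 against 1.01, was below. The median gene differed by 0.87 in the same direction.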

How the results depend on the processing

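The number of sites was 109 at a log2 fold of 4 and 408 at 1 in place of 182 at 3. It was 126 to 231 with a −log10 p of 5, adjusted p-values, joined intervals, or without ribosomal-like and adapter-like peaks. The number of depleted peaks was 1 at −4 and 111 at −1 in place of 8. Depletion could not be set against a −log10 p of 5 or an adjusted p, because the deposited p is 0 there. With the deepest interval of each gene alone, 780 genes were enriched in place of 1498. Depleted genes numbered 44 at a log2 fold of −2 and 21 with peaks on more than 1 gene left out, in place of 104. The coding share of sites, 46.2%, was 36% at a log2 fold of 1, 56.0% over joined stretches and 56.8% without ribosomal-like and adapter-like peaks. Over peaks of 10 or more reads the median log2 fold was 0.65 in place of 2.24. Of 383 alternative values for 101 named genes, 340 kept direction and call, 37 lost the call, 2 gained it and 4 turned sign: Rcc1 to 2.24 with peaks on more than 1 gene left out, and, with the deepest interval, Rpl7a to −0.73, Srsf5 to −0.22 and Nkd1 to −0.03. Leaving out stretches that held the searched letters, and using only peaks whose reads follow from a deposited p, were added after the data were seen. No paired analysis was possible because replicate numbers are shared only by the small-intestine libraries, and each colonic group is 1 sample. Depth was also a limit, since the median peak had 3 IP reads.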
